A study of Mus musculus with 9 samples.

Results

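The 10 genes followed here through 9 libraries of splenic CD11b+ dendritic cells encode C-type lectins and lectin-like receptors. They are Clec7a, which encodes Dectin-1, Clec12a, the Mgl pair Clec10a and Mgl2, the CD209 genes Cd209a, Cd209b, Cd209d and Cd209e, Cd207, which encodes Langerin, and Ly75, which encodes DEC-205. The genes were taken by symbol. All 10 were found among the 24054 genes counted, all 10 were among the 14452 genes tested, and 8 had an average count of at least 50. The exceptions, Cd209e and Cd207, had 3 to 61 reads in a library.

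All mice were C57BL/6 and homozygous for Clec9a-Cre and for Rosa-tdTomato, a reporter that stays switched on in cells that expressed Clec9a-Cre and in their progeny, so every group carries both alleles. Cells were sorted from spleen as live, single, autofluorescence-negative, MHCII+ CD11c+ CD11b+ cells and split by tdTomato (TOM). The groups were TOM+ cDC2 from mice at postnatal day 8 (n = 3 libraries), TOM- DC2 at postnatal day 8 (n = 3) and TOM+ cDC2 from adults (n = 3, of which 1 library came from mice of 9 weeks and 2 from mice of 8 weeks). Young spleens were pooled before sorting, and in the young TOM+ and TOM- groups the libraries carry the same numbers, 81, 91 and 92. The adult libraries are numbered 91, 92 and 95. In bulk RNA of this kind, fewer cells of a type and less RNA per cell cannot be told apart.

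C-type lectin receptors bind sugars on microbes and on the body's own glycoproteins through a calcium-dependent or related fold. Dectin-1 recognises fungal beta-glucan and signals through Syk and Card9, whereas Clec12a carries an inhibitory motif that recruits phosphatases. The Mgl receptors bind galactose and N-acetylgalactosamine, the CD209 receptors and Langerin bind mannose- and fucose-rich glycans, and DEC-205 is an uptake receptor that delivers cargo to antigen-processing compartments.

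The 10 genes lie in 5 places in the mouse genome (GRCm38.p6). Clec12a (chr6:129349783-129365303, plus strand) and Clec7a (chr6:129461591-129472785, minus strand) are 96.3 kb apart. Mgl2 (chr11:70130125-70137542) and Clec10a (chr11:70166623-70170836) stand on the plus strand with 29.1 kb between them. The CD209 genes follow each other on the minus strand of chromosome 8 in the order Cd209a (chr8:3743395-3748984), Cd209e (chr8:3847973-3854286), Cd209d (chr8:3871824-3878548) and Cd209b (chr8:3917655-3926841). Cd207 lies at chr6:83671207-83677857 and Ly75 at chr2:60292103-60383273, both on the minus strand.

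Clec10a and Mgl2 are close copies, and their coding sequences were identical at 838 of 910 aligned bases (92.1%). The stretch from base 213 to base 437 of the Clec10a coding sequence (counted from 1 at the start codon, chr11:70169169-70169760 over several exons) and its counterpart in Mgl2 (chr11:70135631-70136275) are shown because a 50-base read that misses both differing bases cannot be assigned to 1 of the genes. Capitals mark the 2 differing bases, G275A and G382C, given as the Clec10a base, its position and the Mgl2 base.
Clec10a: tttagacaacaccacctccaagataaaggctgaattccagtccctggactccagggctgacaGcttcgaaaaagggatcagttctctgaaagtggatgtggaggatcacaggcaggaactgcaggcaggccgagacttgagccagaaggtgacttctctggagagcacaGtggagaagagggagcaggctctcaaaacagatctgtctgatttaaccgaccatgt
Mgl2: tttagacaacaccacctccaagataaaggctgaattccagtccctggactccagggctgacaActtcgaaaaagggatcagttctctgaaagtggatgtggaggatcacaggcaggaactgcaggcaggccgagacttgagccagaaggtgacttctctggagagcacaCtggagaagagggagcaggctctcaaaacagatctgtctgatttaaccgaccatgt

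The longest run shared without any difference was 183 bases long, from base 499 to base 681 of the Clec10a coding sequence (chr11:70169822-70170189), and is shown because it is the largest block in which the genes cannot be separated.
shared run: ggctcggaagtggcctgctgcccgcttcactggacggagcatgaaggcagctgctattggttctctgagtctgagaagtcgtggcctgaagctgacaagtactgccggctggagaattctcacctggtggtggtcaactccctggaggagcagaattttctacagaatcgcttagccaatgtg
Of the 1447 windows of 50 bases in the Clec10a transcript, 242 (16.7%) also occurred in Mgl2, and 261 of the 1537 windows of Mgl2 (17.0%) occurred in another gene, 242 of them in Clec10a. Coding identity between pairs of Cd209a, Cd209b, Cd209c, Cd209d and Cd209e ranged from 69.3% to 79.1%, and 0 windows of Cd209a, Cd209b, Cd209d or Cd209e occurred in another gene. Of their relatives, Cd209f shared 434 of 1137 windows (38.2%) with Cd209g, and Cd209c shared 336 of 1501 (22.4%) with gene models outside the family, so the values of these 3 genes are uncertain. Clec7a, Clec12a and Cd207 also shared 0 windows, and Ly75 shared 151 of 5123 (2.95%) with the gene model Gm13571.

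Promoter sequences were at hand for 9 of the 10 genes, and 7 short motifs were searched on both strands in the 250 bases before each start. The composite of an ETS and an IRF site, spelled GGAA, 2 bases of any kind and GAAA, was found in Clec7a, Cd209d and Cd209e, and in 2.30% of all 32851 promoters. It shares its GAAA letters with the interferon-stimulated response element (GAAA, 2 bases of any kind and GAAA, in 2.98% of all promoters), which was found in none of the 9. Bases 110 to 51 before the start are shown from RefSeq for these genes, on the gene's own strand with the match in capitals (there as its reverse complement), and for Cd209a, the most abundant CD209 gene, which has no match in its 250 bases. The coordinates are chr6:129472830-129472889 for Clec7a, chr8:3878550-3878609 for Cd209d, chr8:3854337-3854396 for Cd209e and chr8:3749035-3749094 for Cd209a, all on the minus strand.
Clec7a: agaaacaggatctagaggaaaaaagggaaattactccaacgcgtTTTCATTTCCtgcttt
Cd209d: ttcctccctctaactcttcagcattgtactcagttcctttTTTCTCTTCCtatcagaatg
Cd209e: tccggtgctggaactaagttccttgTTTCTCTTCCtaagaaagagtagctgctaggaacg
Cd209a: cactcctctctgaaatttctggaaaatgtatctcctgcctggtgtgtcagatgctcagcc
Cd209d and Cd209e hold the same 10 letters, 70 and 85 bases before the starts of their promoter sequences. Clec7a holds its own version 66 bases before the start used here and 60 bases before a second one. For Cd209d the promoter start lies inside the gene span given above, so the match is closer to the end of that span. Of the other motifs, TGANTCA (AP-1) was found in Clec12a and Cd207 and in 6.75% of all promoters, and TATAAA was found in Cd209a and in 12.4%. GAGGAAGT (PU.1-type, in 2.44% of all promoters), the NF-kB motif (GGGA, 1 base of any kind and TTTCC, in 0.356%) and CACGTG (in 6.02%) were found in none of the 9.

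Levels are given as TPM, a share of all transcripts that RSEM corrects for transcript length so that genes can be compared, and tests were run on STAR read counts with edgeR. A gene is called changed at a log2 fold change beyond 1 and a Benjamini-Hochberg adjusted p under 0.05 over all genes tested. Per length, Clec7a and Cd209a stood well above the others in every group, at 146 to 693 TPM. Clec10a, Mgl2, Clec12a, Cd209b, Cd209d and Ly75 ranged from 1.66 to 64.1 TPM, and Cd209e and Cd207 did not exceed 2.95 TPM.

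**Figure D1:**
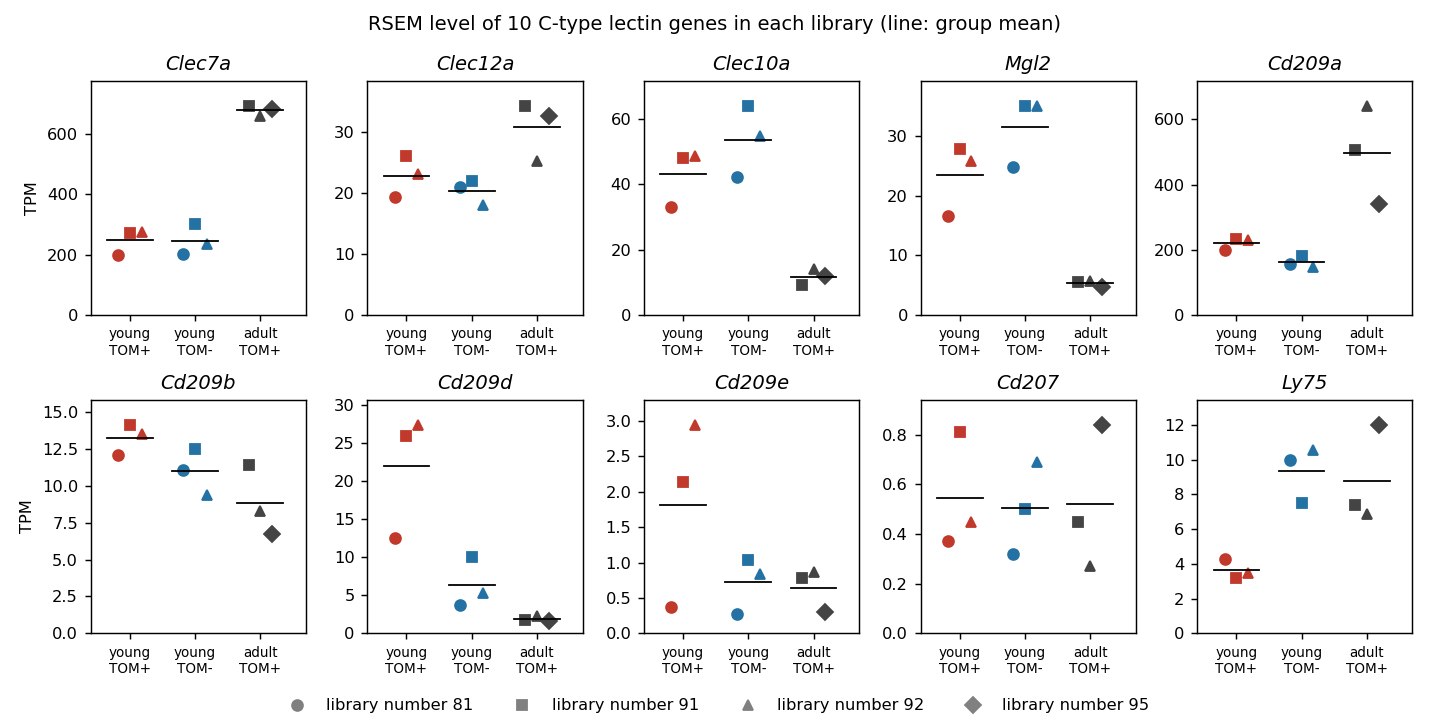
RSEM level in TPM (vertical axis, linear, starting at 0) of each of the 10 genes in each of the 9 libraries, by group, with a line at the group mean and symbols for the library number. The adult libraries sit apart from all young libraries for Clec7a and Cd209a (above) and for Clec10a, Mgl2 and Cd209d (below), whereas for Ly75 the young TOM+ libraries sit below both other groups.

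Young TOM+ cDC2 differed from adult TOM+ cDC2 in most of these genes. Of the 10, 6 were called, 3 higher and 3 lower in the young cells, where 12.8% of all genes tested were called (5.96% higher and 6.86% lower). Clec10a, Mgl2 and Cd209d were higher in young cells, and Clec7a, Cd209a and Ly75 lower. Young TOM- DC2 against adult TOM+ cDC2, which differ in age and in TOM and share the adult libraries with the former comparison, gave 5 of 10 calls beside 11.3% of all genes (6.50% higher and 4.78% lower), with Clec10a, Mgl2 and Cd209d higher and Clec7a and Cd209a lower in the young cells. Between the young groups, 2 of 10 were called beside 1.18% of all genes: Cd209d was higher and Ly75 lower in TOM+ cDC2.

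**Figure D2:**
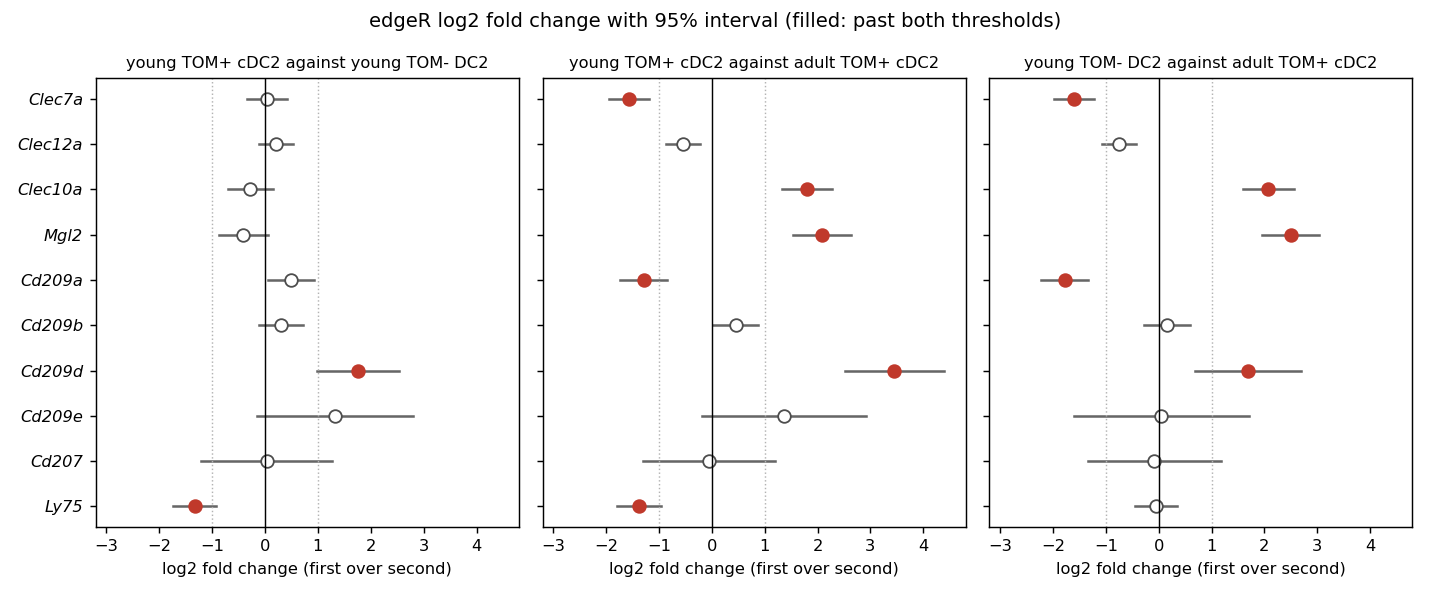
log2 fold change (horizontal axis, first group over second) from edgeR with its 95% confidence interval for each gene in the 3 comparisons. Filled points passed both thresholds and dotted lines mark a log2 fold change of 1 in each direction. Clec10a, Mgl2 and Cd209d lie on the right and Clec7a and Cd209a on the left in both comparisons with adults.

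Dectin-1 RNA was low in both young groups and high in adults. Clec7a stood at 199.6, 272 and 274 TPM in young TOM+ cDC2, at 203, 302 and 236 TPM in young TOM- DC2 and at 693, 661 and 684 TPM in adult TOM+ cDC2. Every adult library was above every young library, while the young groups overlapped. In library-scaled counts, 51.1% of all genes did not overlap between young and adult TOM+ cDC2 and 47.6% did not between TOM- DC2 and adults. Clec7a was 2.97-fold lower in young than in adult TOM+ cDC2 (log2 fold change -1.57 ± 0.17, SE, edgeR adjusted p = 2.4e-05) and 3.05-fold lower in TOM- DC2 than in adults (-1.61 ± 0.18, adjusted p = 2.7e-05). Between the young groups its log2 fold change was 0.04, with a 95% interval from -0.34 to 0.41 (edgeR adjusted p = 0.99).

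Clec12a, the inhibitory neighbour of Clec7a, pointed the same way by a smaller amount. Its levels were 19.4, 26.05 and 23.2 TPM in young TOM+ cDC2, 21.01, 22.05 and 18.1 TPM in TOM- DC2 and 34.3, 25.4 and 32.7 TPM in adults, so that the lowest adult library lay within the range of young TOM+ cDC2. The log2 fold change was -0.55 ± 0.15 for young against adult TOM+ cDC2 (edgeR adjusted p = 0.011) and -0.75 ± 0.15 for TOM- DC2 against adults (adjusted p = 0.0019). Both had an adjusted p under 0.05, as did 40.6% and 36.3% of all genes in these comparisons (1.60% between the young groups), and neither reached a log2 fold change of 1. For Clec12a, young TOM+ cDC2 over TOM- DC2 gave a log2 fold change of 0.20 (95% interval -0.12 to 0.53).

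The genes around Clec7a and Clec12a on chromosome 6 were also lower in young cells. Of 7 neighbours tested, 6 were lower in young than in adult TOM+ cDC2, 4 were lower in TOM- DC2 than in adults and 0 were called between the young groups by edgeR, beside 6.86%, 4.78% and 1.16% of all genes lower. The list's median log2 fold change was -1.59, -1.54 and -0.03 in these comparisons, beside 0.05, 0.07 and 0.00 over all genes. Clec1b, which encodes the CLEC-2 receptor of podoplanin, had 0.53 to 0.78 TPM in young TOM+ cDC2, 0.53 to 1.03 TPM in TOM- DC2 and 3.53 to 3.73 TPM in adults. Its log2 fold change was -2.66 and -2.36 in the comparisons with adults. Tmem52b (-2.54 and -1.54), Clec1a (-1.77 and -1.74) and Clec2d (-1.59 and -1.83), the last a ligand of an inhibitory natural killer cell receptor, were called in both. Olr1, a receptor for oxidised lipoprotein, and Gabarapl1, an autophagy gene, were called only for young against adult TOM+ cDC2, at -1.06 and -1.06, with Olr1 just inside the threshold (edgeR adjusted p = 0.0499). With the young libraries paired by number, Olr1 was also called for TOM- DC2 against adults (-1.12, adjusted p = 0.029). Clec1a, Clec1b, Clec2d, Olr1 and Tmem52b did not exceed 6.93 TPM in any library, and Clec9a, whose locus carries the Cre, was at 0.05 to 0.34 TPM in the 9 libraries. The paper states that mice homozygous for this Cre have no functional DNGR-1, the receptor that Clec9a encodes. The Clec9a level therefore comes from a changed locus in every group.

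Few genes that act downstream of Dectin-1 passed both thresholds. Of 24 genes of Syk and Card9 signalling, 2 were called for young against adult TOM+ cDC2, 1 for TOM- DC2 against adults and 0 between the young groups, beside 12.8%, 11.3% and 1.18% of all genes, with medians of -0.39, -0.40 and 0.02 on the log2 scale. With an adjusted p under 0.05 alone, 13 of the 24 were lower and 1 higher in young than in adult TOM+ cDC2, and 13 were lower in TOM- DC2 than in adults, beside 40.6% and 36.3% of all genes in either direction. Malt1, the paracaspase of the Card9 complex, was called in both comparisons with adults (-1.27 and -1.13) and had 88.5 to 109 TPM in young TOM+ cDC2, 101 to 126 TPM in TOM- DC2 and 204 to 245 TPM in adults. Blnk, an adaptor, was called in the first of them (-1.08). Syk and Card9 were not called in any comparison, and Syk stood at 135 to 187 TPM across the 9 libraries. None of 4 inhibitory phosphatases, the class recruited by Clec12a, was called. Among 10 transcription factors downstream, Rel (-1.17 and -1.01) and Relb (-1.37 and -1.54), both NF-kB subunits, were lower in young cells in both comparisons with adults.

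Of 15 genes that Dectin-1 ligands are known to induce, 5 were lower in young than in adult TOM+ cDC2, beside 6.86% of all genes, and 5 were lower and 1 higher in TOM- DC2 than in adults, beside 4.78% and 6.50%. Il1b (-1.17 and -1.23), Il12b (-1.79 and -1.71), Ptgs2 (-1.33 and -1.13) and Egr3 (-1.65 and -1.25) were lower in both. Egr2 was called for young against adult TOM+ cDC2 (-1.34), and with the young libraries paired by number also for TOM- DC2 against adults (-1.01, edgeR adjusted p = 0.00033), and Nlrp3 for TOM- DC2 against adults (-1.01). Il23a, a subunit of IL-23, had its own pattern, at 0.08 to 0.44 TPM in young TOM+ cDC2, 5.40 to 11.3 TPM in TOM- DC2 and 0.00 to 0.32 TPM in adults. It was the single gene of this list that was called between the young groups (edgeR adjusted p = 0.00041). The labels name no stimulation of the cells.

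**Figure D3:**
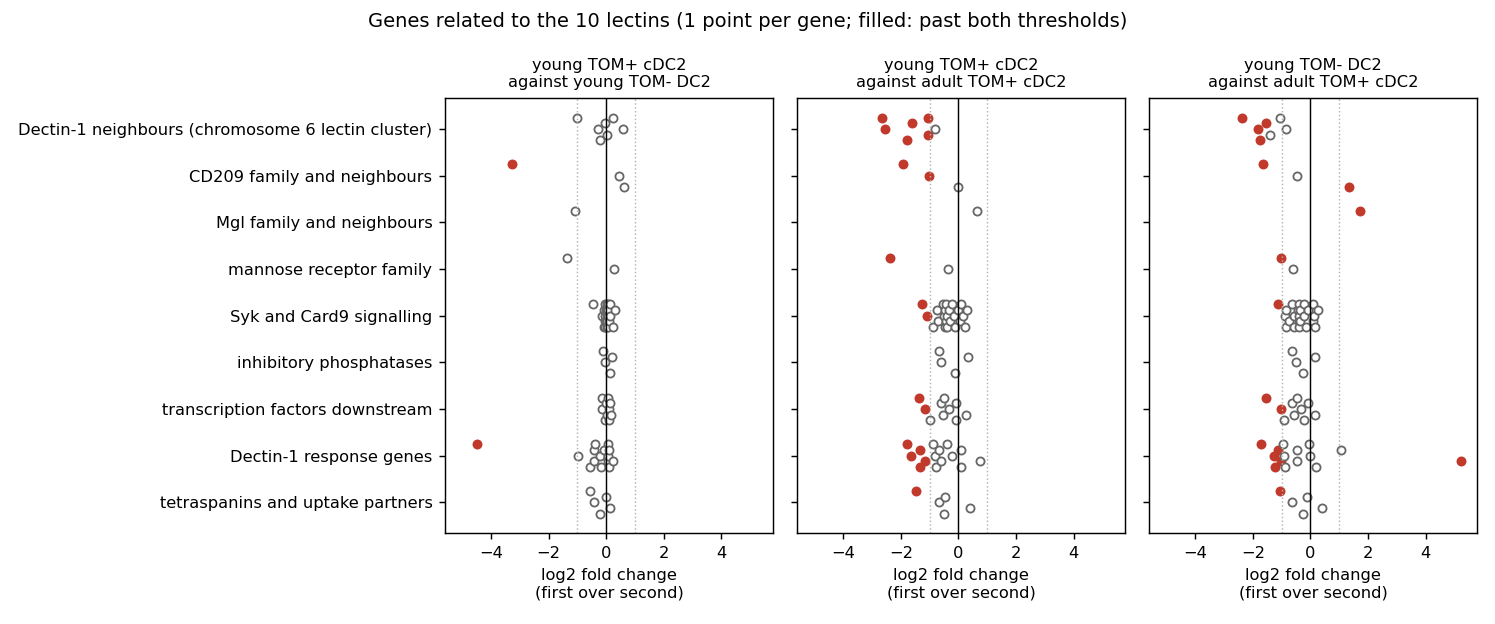
log2 fold change (horizontal axis) of 71 tested genes related to the 10 lectins, by list (vertical axis), in the 3 comparisons, 1 point per gene, filled where both thresholds were passed. Filled points lie left of 0 for young against adult TOM+ cDC2 (19 genes), and Il23a and Fcer2a stand far left between the young groups.

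The Mgl pair showed the reverse of Dectin-1. Clec10a, which encodes Mgl1, stood at 32.99, 48.1 and 48.65 TPM in young TOM+ cDC2, at 42.35, 64.1 and 54.8 TPM in TOM- DC2 and at 9.22, 13.95 and 11.85 TPM in adults. Mgl2 stood at 16.6, 27.95 and 25.8 TPM, at 24.8, 35.1 and 35.1 TPM, and at 5.57, 5.75 and 4.64 TPM in the same order. For both genes the lowest young library was above the highest adult library, and the young groups overlapped. Clec10a was 3.48-fold higher in young than in adult TOM+ cDC2 (log2 fold change 1.80 ± 0.22, edgeR adjusted p = 4.6e-05) and 4.21-fold higher in TOM- DC2 than in adults (2.08 ± 0.22, adjusted p = 2.1e-05). Mgl2 was 4.25-fold (2.09 ± 0.25, edgeR adjusted p = 4.1e-05) and 5.65-fold higher (2.50 ± 0.25, adjusted p = 1.4e-05).

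Between the young groups, neither Mgl gene was called. The log2 fold change of young TOM+ cDC2 over TOM- DC2 was -0.28 for Clec10a (95% interval -0.70 to 0.15, edgeR adjusted p = 0.79) and -0.41 for Mgl2 (-0.87 to 0.05, adjusted p = 0.62). Within each of the 3 same-numbered pairs both genes were lower in TOM+ cDC2, and with the libraries paired by number the values were -0.28 (edgeR adjusted p = 0.29) and -0.42 (adjusted p = 0.11). In both young groups the library numbered 81 was the lowest for both genes. Asgr2, an asialoglycoprotein receptor subunit of the same subfamily on chromosome 11, was called for TOM- DC2 against adults only (1.73, edgeR adjusted p = 0.0079) at 1.36 to 1.99 and 0.30 to 0.55 TPM, and Asgr1 did not pass the filter on low counts.

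The pair was read by both counting programs. STAR, which drops reads with more than 1 best position, gave Clec10a 433, 584 and 684 reads in young TOM+ cDC2, 440, 718 and 863 in TOM- DC2 and 83, 116 and 135 in adults. RSEM, which shares such reads out between the copies, gave 1.16 to 1.29 times as many for Clec10a and 1.11 to 1.31 times as many for Mgl2. For the other 8 genes RSEM gave at most as many reads as STAR. With RSEM counts in the same test, the log2 fold changes against adults were 1.74 and 2.02 for Clec10a and 1.996 and 2.40 for Mgl2 (edgeR adjusted p = 0.00011, 4.5e-05, 7.2e-05 and 2.5e-05), so the choice of program moved them by less than 1 SE. The ratio of Clec10a to Mgl2 in TPM was 1.72 to 1.98 for young TOM+ cDC2, 1.56 to 1.83 for young TOM- DC2 and 1.66 to 2.55 for the adult libraries, and these ranges overlapped.

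**Figure D4:**
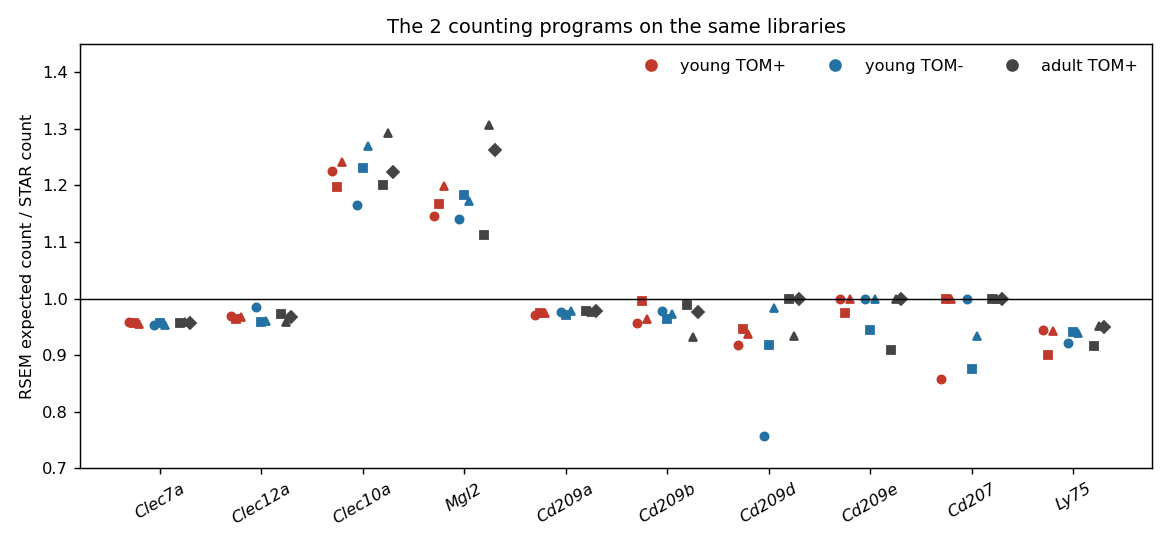
RSEM expected count divided by the STAR count (vertical axis, no unit, starting at 0.7) for each gene in each of the 9 libraries, coloured by group. Clec10a and Mgl2 lie between 1.11 and 1.31 and all other genes at or below 1.

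Macrophages can also carry Mgl receptors, and some markers of red pulp macrophages were higher in the young cells too. Of 6 markers tested, 2 (Hmox1 and Slc40a1) were higher in young than in adult TOM+ cDC2, beside 5.96% of all genes. With Mertk, 3 were higher in TOM- DC2 than in adults, beside 6.50%. C1qa, C1qb and C1qc were not called. Their log2 fold changes were 0.27, 0.29 and 0.04 for young against adult TOM+ cDC2 and 0.79, 0.98 and 0.77 for TOM- DC2 against adults. The summed level of the markers was 128 to 170.2 TPM in young TOM+ cDC2, 220 to 261 TPM in TOM- DC2 and 56.1 to 114 TPM in adults, with none at or under 3 counts throughout a group. The part of macrophages in the Mgl result was not tested.

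Within the CD209 cluster, Cd209a and Cd209d went in opposite directions with age. Cd209a, the mouse gene often called DC-SIGN, stood at 198, 234 and 230.2 TPM in young TOM+ cDC2, at 156, 181 and 146 TPM in TOM- DC2 and at 505, 641 and 341 TPM in adults. All adult libraries were above all young ones, and all young TOM+ libraries were above all TOM- libraries. Cd209a was 2.44-fold lower in young than in adult TOM+ cDC2 (log2 fold change -1.29 ± 0.20, edgeR adjusted p = 0.00031) and 3.43-fold lower in TOM- DC2 than in adults (-1.78 ± 0.21, adjusted p = 4.0e-05). Between the young groups the log2 fold change was 0.49 (95% interval 0.05 to 0.93), which was not called (edgeR adjusted p = 0.43), and 16.6% of all genes had groups without overlap in this comparison.

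Cd209d, which encodes SIGNR3, was highest in young TOM+ cDC2. It had 12.5, 25.9 and 27.4 TPM there, 3.68, 10.1 and 5.35 TPM in TOM- DC2 and 1.81, 2.32 and 1.66 TPM in adults, and the 3 groups did not overlap. STAR counted 123, 223 and 286 reads, 33, 85 and 61 reads, and 11, 15 and 13 reads in the same libraries. The gene was 10.9-fold higher in young than in adult TOM+ cDC2 (log2 fold change 3.45 ± 0.43, edgeR adjusted p = 5.8e-05), 3.39-fold higher in young TOM+ cDC2 than in TOM- DC2 (1.76 ± 0.36, adjusted p = 0.026) and 3.23-fold higher in TOM- DC2 than in adults (1.69 ± 0.46, adjusted p = 0.013). It was 1 of 3 genes, 0.0208% of those tested, called higher in young TOM+ cDC2 than in TOM- DC2. That call was lost without young TOM+ library 91 (adjusted p = 0.11) or 92 (0.12), without young TOM- library 81 (0.076) or 92 (0.16), and the call for TOM- DC2 against adults was lost without TOM- library 91 (0.053) or adult library 95 (0.059, all edgeR).

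Cd209b, the SIGNR1 gene known from marginal zone macrophages, and Cd209e, which encodes SIGNR4, were not called. Cd209b had 12.1, 14.1 and 13.5 TPM in young TOM+ cDC2, 11.03, 12.5 and 9.37 TPM in TOM- DC2 and 11.4, 8.27 and 6.73 TPM in adults. Its log2 fold change was 0.45 for young against adult TOM+ cDC2 (95% interval 0.02 to 0.88, edgeR adjusted p = 0.089), 0.16 for TOM- DC2 against adults (-0.28 to 0.59) and 0.29 between the young groups (-0.12 to 0.71). Summed markers listed for marginal zone and metallophilic macrophages stood at 57.5 to 64.9 TPM, 72.2 to 105 TPM and 45.7 to 50.4 TPM in young TOM+ cDC2, TOM- DC2 and adults. Spic had the highest mean of the list in each group, at 44.6, 65.3 and 26.8 TPM. Marco and Siglec1 did not exceed 0.82 and 0.19 TPM in any library, so the sum rests mainly on Spic, Vcam1 and Nr1h3. These genes are not specific to marginal zone and metallophilic macrophages, so the sum does not measure the RNA of those cells. Of 6 markers, Spic was higher in TOM- DC2 than in adults, beside 6.50% of all genes, and the others were not called. Marco was at or under 3 counts in every adult library and Cd5l in every young TOM+ library. The part of such macrophages in the Cd209b values was not tested.

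Cd209e was measured on few reads, with 7, 38 and 61 in young TOM+ cDC2, 4, 18 and 20 in TOM- DC2 and 11, 11 and 5 in adults. The library numbered 81 was the lowest of its group in both young groups, for Cd209e as for Cd209d. The log2 fold change was 1.37 for young against adult TOM+ cDC2 (95% interval -0.19 to 2.92, edgeR adjusted p = 0.15) and 1.32 between the young groups (-0.16 to 2.79, adjusted p = 0.62). Without young TOM+ library 81 the former was 1.87 and passed the test (edgeR adjusted p = 0.014).

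As a family, the CD209 genes shifted in make-up with age. Summed over Cd209a to Cd209g, their level was 224 to 278 TPM in young TOM+ cDC2, 162 to 206 TPM in TOM- DC2 and 352 to 654 TPM in adults. The part of that sum taken by Cd209a was 83.4% to 88.1% for young TOM+ cDC2, 87.9% to 90.3% for young TOM- DC2 and 97.1% to 98.0% for the adult libraries. The share of Cd209d was 5.58% to 9.92%, 2.12% to 4.88% and 0.348% to 0.472%, and the share of Cd209b 4.90% to 5.38%, 5.79% to 6.37% and 1.26% to 2.19%. For the shares of Cd209b and Cd209d the 3 groups did not overlap, although no test of 3 libraries against 3 can give an exact permutation p under 0.1. Each share depends on the whole sum, which is mostly Cd209a, and Cd209b itself was not called in any comparison. Cd209c stayed at 0.68 to 1.89 TPM, Cd209g at 0.00 to 0.32 TPM, and Cd209f was listed at 0 in all libraries. With RSEM counts in place of STAR counts the log2 fold change against adults was -1.33 and -1.81 for Cd209a and 3.36 and 1.55 for Cd209d, and between the young groups 1.81 for Cd209d (edgeR adjusted p = 0.037).

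**Figure D5:**
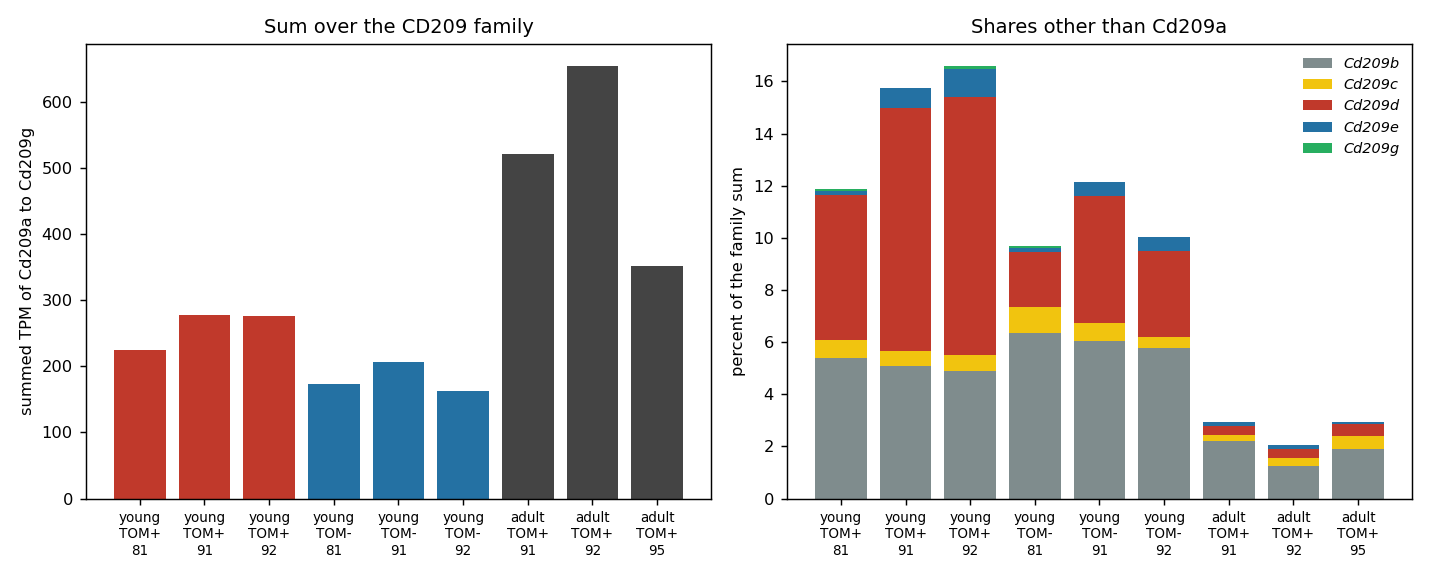
Left, summed TPM of Cd209a to Cd209g in each library (vertical axis from 0). Right, the percent of that sum taken by each gene other than Cd209a, stacked, in the same libraries. The adult bars are the tallest on the left and the shortest on the right, where Cd209d takes 5.58% to 9.92% in young TOM+ cDC2 and at most 0.472% in adults.

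Fcer2a and Clec4g, lectins beside the CD209 genes on chromosome 8, gave different patterns. Fcer2a, the low-affinity IgE receptor CD23, had 0.70 to 0.79 TPM in young TOM+ cDC2, 5.94 to 8.36 TPM in TOM- DC2 and 2.23 to 2.98 TPM in adults. Its log2 fold change was -3.27 between the young groups, -1.92 for young against adult TOM+ cDC2 and 1.35 for TOM- DC2 against adults (edgeR adjusted p = 7.6e-06, 4.5e-05 and 0.00020). Clec4g gave values that depended on the counting program. With STAR counts its log2 fold change was -1.04 for young against adult TOM+ cDC2 and -1.65 for TOM- DC2 against adults, both called. With RSEM counts it was -0.30 (edgeR adjusted p = 0.38) and -1.07 (0.0072), and its levels, at 3.65 to 4.63 TPM in young TOM+ cDC2, 2.12 to 3.10 TPM in TOM- DC2 and 4.21 to 5.32 TPM in adults, overlapped between the TOM+ groups. RSEM gave 0.62 to 0.69 times the STAR count of Clec4g in young TOM+ cDC2 and 0.31 to 0.45 times in adults. Markers of B cells, which carry CD23, summed to 61.0 to 70.7 TPM, 69.98 to 80.8 TPM and 41.1 to 54.0 TPM, with 1 of 5 tested lower in young TOM+ cDC2 than in TOM- DC2, 2 lower than in adults and Pax5 at or under 3 counts in every library. Over all genes tested, 1.16% were lower in young TOM+ cDC2 than in TOM- DC2 and 6.86% lower than in adults. The part of B cells in the Fcer2a result was not tested.

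DEC-205 RNA separated the young groups. Ly75 stood at 4.26, 3.18 and 3.49 TPM in young TOM+ cDC2, at 9.96, 7.51 and 10.5 TPM in TOM- DC2 and at 7.39, 6.86 and 12.02 TPM in adults. Every young TOM+ library was below every other library, and TOM- DC2 overlapped with adults. Ly75 was 2.51-fold lower in young TOM+ cDC2 than in TOM- DC2 (log2 fold change -1.33 ± 0.19, edgeR adjusted p = 0.0020) and 2.60-fold lower than in adult TOM+ cDC2 (-1.38 ± 0.19, adjusted p = 0.00011). Both comparisons use the same young TOM+ libraries. For TOM- DC2 against adults the log2 fold change was -0.05 (95% interval -0.45 to 0.34, edgeR adjusted p = 0.84).

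Ly75 is also carried by cross-presenting cDC1 and by migratory dendritic cells. The cDC1 markers summed to 203 to 217 TPM in young TOM+ cDC2, 219 to 235 TPM in TOM- DC2 and 242 to 254 TPM in adults, with none of 9 called between the young groups and 2 lower and 1 higher in young than in adult TOM+ cDC2. Batf3 made up most of this sum, and Clec9a, whose locus carries the Cre, is on the list. Irf8, a transcription factor on the list, stood at 20.3 to 26.45 TPM, 39.1 to 44.2 TPM and 45.2 to 49.2 TPM, with log2 fold changes of -0.77 between the young groups (edgeR adjusted p = 0.0027) and -1.10 for young against adult TOM+ cDC2 (adjusted p = 1.4e-05). Migratory markers summed to 508 to 557 TPM, 583 to 733 TPM and 1898 to 2887 TPM, with 0 of 5 called between the young groups and 3 of 5 lower in each young group than in adults. Genes linked to group 3 innate lymphoid cells summed to 39.4 to 63.5 TPM, 111 to 172 TPM and 116 to 156 TPM, with 5 of 7 tested lower in young TOM+ cDC2 than in TOM- DC2 and 3 of 7 lower than in adults, and Il22 at or under 3 counts in every library. Over all genes tested, 1.16% were lower in young TOM+ cDC2 than in TOM- DC2 and 6.86% lower than in adults (5.96% higher). For TOM- DC2 against adults, 4.78% were lower. The part of these cell types in the Ly75 result was not tested. In the mannose receptor family to which Ly75 belongs, Mrc2 was lower in young than in adult cells (-2.36 and -1.01), at 0.20 to 0.83, 0.97 to 1.29 and 1.87 to 2.10 TPM. With the young libraries paired by number, Mrc2 was called between the young groups (-1.48, edgeR adjusted p = 0.017) and for TOM- DC2 against adults it fell just short of a log2 fold change of 1 (-0.9986). Mrc1 stayed at 0.18 to 0.73 TPM in all libraries.

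Langerin RNA was barely measured. Cd207 had 7, 12 and 8 reads in young TOM+ cDC2, 4, 8 and 15 in TOM- DC2 and 5, 3 and 12 in adults, or 0.27 to 0.84 TPM over the 9 libraries. At this depth the 95% intervals of its log2 fold change ran from -1.20 to 1.26 between the young groups, from -1.30 to 1.19 for young against adult TOM+ cDC2 and from -1.34 to 1.17 for TOM- DC2 against adults, so that differences of 2-fold in either direction lay inside all 3 intervals and were not detectable at this depth.

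Among 76 genes of the 9 related lists, 71 were tested. Of these, 19 were called for young against adult TOM+ cDC2, all lower in young cells, 18 for TOM- DC2 against adults, 15 lower and 3 higher, and 2 between the young groups, both lower in TOM+ cDC2, beside 12.8%, 11.3% and 1.18% of all genes. Cd63, a tetraspanin of late endosomes, was the single called gene of 5 tetraspanins and was lower in young cells, at -1.47 and -1.05. The median log2 fold change over the 71 genes was -0.51, -0.48 and 0.00.

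Over the 9 libraries, the genes most like each lectin in log2 CPM, among 10104 with an average count of at least 50, were found by Pearson correlation, which does not take in the size of a step. The 9 points fall into 3 groups and share depth and normalization, so these are descriptions. Clec7a was most like Evi2a (Pearson r = 0.995), Ensa (0.992) and Nfkbiz (0.989), an NF-kB regulator. Ensa moved far less than Clec7a, with a log2 fold change of -0.33 for young against adult TOM+ cDC2. Clec12a was most like Yeats4 (0.960), Bcl7b (0.957) and Ccdc9 (0.952). Clec10a was most like 1190002F15Rik (0.991), the chemokine gene Ccl6 (0.990) and Mrpl27 (0.989), and Mgl2 most like Sema6b (0.988), Hmgn1 (0.985) and 2010320M18Rik (0.984). Cd209a was most like Rexo4 (0.989), Soat1 (0.985) and Scamp3 (0.978), although Rexo4 had a log2 fold change of only -0.25 for young against adult TOM+ cDC2. Cd209b was most like Dcun1d5 (0.979), Trmt61a (0.939) and Tmem126a (0.937), and Cd209d most like Emc6 (0.994), Ppp1r14b (0.984) and Ybx3 (0.978). Ly75 was most like Dbn1 (0.975), Igsf3 (0.972) and Rab37 (0.962), and Dbn1 also stood lower in young TOM+ cDC2 than in the other groups, with a mean of 0.80 TPM in young TOM+ cDC2, 5.17 TPM in TOM- DC2 and 4.29 TPM in adults.

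Libraries held 12783252 to 22809401 reads on genes, and the adult libraries, with at most 16809639, overlapped with both young groups. Reads with several positions, which bear on Clec10a and Mgl2, were 12.9% to 13.4%, 12.7% to 13.2% and 10.4% to 10.8% of all reads. None of 10 cDC2 markers was at or under 3 counts throughout a group, and none was called in any comparison. They summed to 73543 to 78327 TPM in young TOM+ cDC2, 69985 to 75387 TPM in TOM- DC2 and 111265 to 114272 TPM in adults. The sum does not give the level of each gene. It includes H2-Ab1, H2-Aa and Cd74, genes of MHC class II presentation that are not specific to cDC2. With an adjusted p under 0.05 alone, all but Zbtb46 differed between young and adult TOM+ cDC2, beside 40.6% of all genes. Itgam and Sirpa were higher in young cells (0.78 and 0.56) and the others lower, down to -0.90 for H2-Ab1. For TOM- DC2 against adults, all but Irf4 differed, beside 36.3%. Genes of the ESAM high type of cDC2, at 275 to 402, 364 to 505 and 757 to 801 TPM, and of the ESAM low type, at 3421 to 4468, 3310 to 4790 and 4944 to 5421 TPM, had the highest sums in adults, with 5 of 7 and 1 of 8 genes tested called lower in young than in adult TOM+ cDC2, beside 6.86% of all genes. The latter sum is mostly Lyz2, Ifitm3, Tmem176a and Tmem176b, and Cebpa, Cd36 and Cx3cr1 of that list had their lowest means in adults (8.92, 2.80 and 13.2 TPM beside 19.3, 5.16 and 19.7 TPM in young TOM+ cDC2). Erythroid markers summed to 701 TPM in 1 TOM- library, to 19.8 and 41.1 TPM in the others of that group and to 46.2 TPM or less in the TOM+ libraries.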

How the data were processed

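The authors sorted the cells, made SMART-seq libraries, sequenced single reads of 50 bases and aligned them to mm10 with STAR. From the alignments the authors made 2 tables per library. In the first, deposited as raw counts from STAR for each gene symbol, the unstranded column was used, so overlapping and antisense genes cannot be told apart. The second, deposited from RSEM, gives expected counts, in which reads shared by several transcripts are divided, and TPM, which are scaled to transcript length and to each library's total. Versions are not given in the sources used here.

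Counts of all 9 libraries were tested in R 4.3.3 with edgeR 4.0.16 (quasi-likelihood test, TMM, average count 1 or more), and p-values were adjusted over all 14452 genes. Standard errors are the log2 fold change over the root of F. The number in a library's name pairs the young libraries: over 10112 genes, same-numbered libraries deviated together from their group means (r = 0.746, 0.501 and 0.517). RSEM expected counts were rounded for testing. DESeq2 1.42.0 with apeglm 1.24.0 and limma 3.58.1 on log2(TPM + 1) or log2(TPM + 0.1) were alternatives. Scripts were tested on simulated data.

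Windows of 50 bases and coding sequences were taken from the transcripts of GENCODE for GRCm38, and promoters from RefSeq. The 10 genes, the related lists, the marker lists and the naming rule (all 10 genes, every called gene of the related lists and the 3 genes most like each well-counted lectin) were chosen with earlier results of these data known. The labels do not say that libraries of a group are separate animals, so p-values cover the spread between these libraries. Floors of 3 counts cover counting error only. The study's single-cell and flow cytometry measurements were not used here.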

Additional observations from a re-analysis of the deposited data

How the results depend on the processing

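The 10 genes were tested under 24 alternatives in 3 comparisons, which gave 717 values, and 665 kept their direction and side of the thresholds, 12 lost a call, 4 gained one and 36 changed direction, all 36 in genes that were not called. Clec7a, Clec10a, Mgl2 and Cd209a kept their calls against adults under every alternative, and so did Cd209d and Ly75 for young against adult TOM+ cDC2.

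Between the young groups, 2 genes were called, and leaving out 1 library at a time gave 1 to 2. The count was 1 with limma on log2(TPM + 1), 1 with limma on log2(TPM + 0.1) and 1 with only the 2 groups compared, with Cd209d lost each time (adjusted p = 0.063, 0.069 and 0.079), and 0 without both young libraries numbered 92, an alternative chosen after seeing the data (Cd209d 0.47, Ly75 0.075). Over all genes this comparison then gave 82 calls in place of 170, and 104 without both numbered 91. For TOM- DC2 against adults, Cd209d had an adjusted p of 0.060 without both numbered 91. Cd209e passed for young against adult TOM+ cDC2 without both numbered 81 (adjusted p = 0.0043). With limma on log2(TPM + 1), 1122 genes in place of 1853 were called for young against adult TOM+ cDC2 and 986 in place of 1631 for TOM- DC2 against adults. Some related genes had calls close to the thresholds. For young against adult TOM+ cDC2, Olr1, Clec4g, Blnk and Gabarapl1 lost theirs under 14, 8, 7 and 5 alternatives. For TOM- DC2 against adults, Mrc2, Rel, Nlrp3 and Cd63 lost theirs under 11, 9, 8 and 7. The cause of these losses was not tested.

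With a replicate block that pairs the young libraries by number, the 10 genes gave 2, 6 and 5 calls, the same genes as without it, and among the related genes it changed the calls of Mrc2, Olr1 and Egr2 and no other. With a replicate block over all 9 libraries, where adult and young numbers do not deviate together throughout, Cd209e was also called between the young groups (adjusted p = 0.048) and against adults (0.014), and 274 genes were called between the young groups.

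The directions that turned did so in values near 0. In young TOM+ cDC2 against TOM- DC2, Clec7a gave -0.0745 without both libraries numbered 92 and -0.12 to 0.23 on leaving out 1 library, and Cd207 gave -0.0609 without both numbered 81, -0.30 without both numbered 91 and -0.33 to 0.34 on leaving out 1 library. For young against adult TOM+ cDC2, Cd207 gave 0.0285 and 0.0994 with limma (pseudocounts 1 and 0.1), 0.71 with the replicate block over all 9 libraries, 0.0930 and 0.0440 without both libraries numbered 81 or 92, and -0.42 to 0.46 on leaving out 1 library. For TOM- DC2 against adults, Cd207 gave 0.0192 with limma (pseudocount 0.1), 0.68 with the block over all 9, 0.15 without both numbered 81 and -0.42 to 0.43 on leaving out 1 library. Ly75 there gave 0.11 and 0.12 with limma (pseudocounts 1 and 0.1), 0.16 with the block over all 9, 0.0641 without both numbered 91 and -0.19 to 0.21 on leaving out 1 library. Cd209e gave -0.0020 with DESeq2, -0.32 with the replicate block over the young libraries, -0.32 with RSEM expected counts and that block, -0.32 and -0.0872 without both numbered 91 or 92, and -0.35 to 0.43 on leaving out 1 library. Cd209b gave -0.0446 to 0.38 on leaving out 1 library.

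Depth limits Cd207 and Cd209e, with at most 15 and 61 reads in a library.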
